A study of Gallus gallus with 4 samples.

Results

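Retinoic acid metabolism and response were followed through 9 genes of the chicken embryo, 3 that code for retinoic acid hydroxylases (CYP26A1, CYP26B1, CYP26C1), 2 for retinaldehyde dehydrogenases (ALDH1A2, ALDH1A3), 3 for nuclear receptors (RARA, RARB, RXRG) and 1 for a cellular binding protein (CRABP1). Every probe set that the platform annotation assigned to 1 of these symbols was taken, which gave 17 of the 37695 chicken probe sets on the array and 9 of its 13009 gene symbols. A probe set is a group of short probes read out as a single value. The tissue was the primitive streak region, dissected at 9 somites, where the precursors of the presomitic mesoderm (PSM) lie. In the HoxA13 group the embryos carried a vector with HoxA13 under the CAGGS promoter, which is active in most cell types, together with an H2B-Venus reporter, while the control vector held H2B-Venus alone. All embryos had been incubated for 24 h, electroporated in culture at stage 5 HH, and kept for another 14 h at 38 °C. Each group had 2 arrays, each of 7 pooled embryos, and the share of cells that took up the vector is not given in the sources used here.

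Retinoic acid is made from vitamin A in a pair of oxidation steps, the last of which is carried out by the ALDH1A enzymes, and is cleared by the CYP26 enzymes. In the trunk of vertebrate embryos ALDH1A2 is the main source and is active in the somites and the anterior PSM, whereas CYP26A1 is expressed in the streak and tail bud and keeps that region low in retinoic acid. The acid binds heterodimers of RAR and RXR receptors on DNA, and both RARB and CYP26A1 are themselves direct targets. CRABP1 binds the acid in the cytoplasm. HoxA13 belongs to the last Hox genes to be switched on as the axis extends, and the comparison asks what its early expression changes in the precursors.

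Background was set on each array at the 99th percentile of 687 viral probe sets, which lay between 12.8 and 16.5 in the arbitrary intensity units of the deposited table, and 37.8% to 42.7% of chicken probe sets exceeded it. The only probe set of HOXA13 read 16.3 and 8.09 on the HoxA13 arrays and 11.6 and 24.7 on the controls. It is not known here whether that probe set lies in the stretch carried by the vector, and it does not test the labels. The brightest reporter probe set read 7038 and 7458 on the HoxA13 arrays and 1293 and 1454 on the controls. The next read 109 and 76.3 against 3.67 and 2.59. The sequence each matches is not given here, and the part of vector load in the differences below was not tested. Of the progenitor markers TBXT (5508 to 6483), WNT3A, CDX2, CDX4, FGF8 and MSGN1 were all above background on the 4 arrays, and TBX6 was below it on all of them. The arrays also differed by replicate number. All 27 hybridisation spike-ins were brighter on both replicate 2 arrays, and for ACTB the ratio of the 3′ to the 5′ probe set was 40.8 and 30.1 on the replicate 1 arrays (HoxA13, control) and 71.8 and 102 on the replicate 2 arrays. A higher ratio means that less of the 5′ part of the transcript was labelled. No label says what the number stands for, so each difference is given within replicate 1 and within replicate 2 as well as pooled.

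The breakdown enzyme CYP26A1 had the largest difference of the members that exceeded background. The intensity was 808 on HoxA13 replicate 1 and 443 on replicate 2, compared with 112 and 93.7 on the controls. Both HoxA13 arrays therefore lay above both controls, and all 4 were far above background. The means were 625 ± 258 and 103 ± 13.0 (SD, n = 2 each), and the fold between the means of log2 intensity was 5.83. Within replicate 1 CYP26A1 was 7.20-fold higher in HoxA13 and within replicate 2 4.72-fold. The HoxA13 arrays differed from each other by 1.82-fold and the controls by 1.20-fold. In both pairs replicate 1, with the lower ACTB 3′ to 5′ ratio, was the brighter, and the part of RNA quality in this spread was not tested. CYP26A1 was represented by 1 probe set, so no second measurement of the transcript bears on it.

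**Figure D1:**
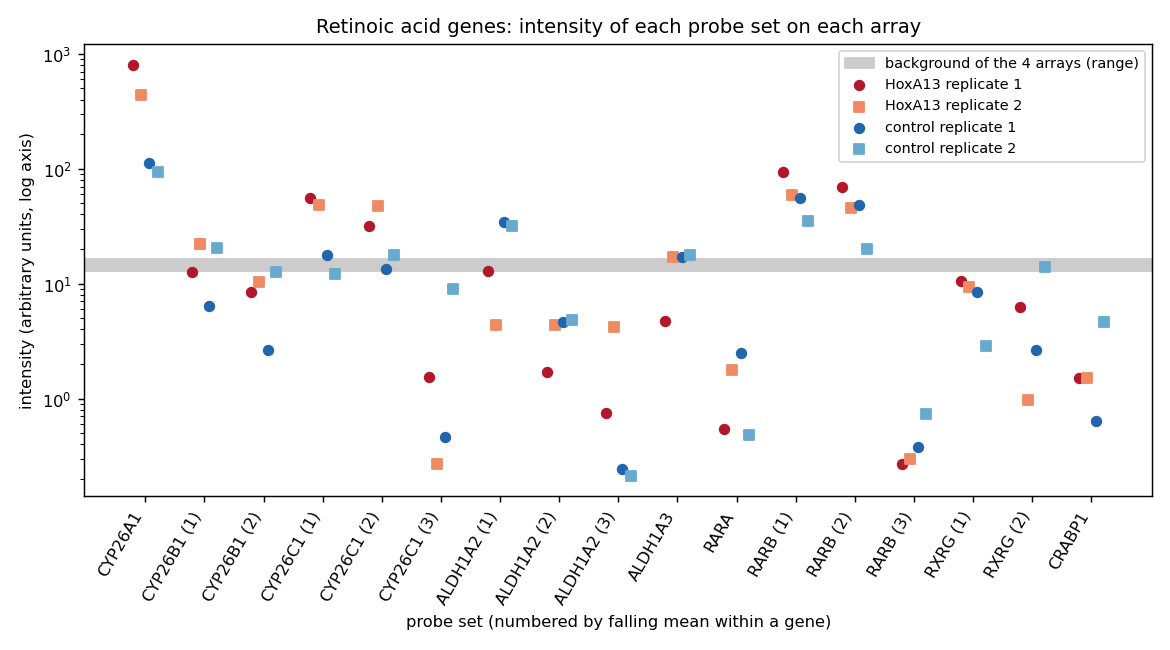
Intensity (log axis) of the 17 probe sets of the 9 retinoic acid genes on each of the 4 arrays, with the range of the array backgrounds (12.8 to 16.5) as a grey band. CYP26A1 and both brighter CYP26C1 probe sets were higher on the HoxA13 arrays, the brightest ALDH1A2 probe set was lower, and 9 probe sets were below background on every array.

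CYP26C1, a second retinoic acid hydroxylase, was measured by 3 probe sets. The brightest read 55.9 and 48.2 on the HoxA13 arrays and 17.7 and 12.2 on the controls, of which the last was below background. The next read 32 and 47.0 against 13.4 and 17.9, all just or clearly above background. In both probe sets the groups did not overlap, and the difference had the same direction within each replicate number. The first was 3.53-fold higher (log2 difference 1.82 ± 0.45, SE) and the second 2.51-fold (1.33 ± 0.47). The brightest carries the suffix by which the array maker marks probes that can match transcripts of more than 1 gene. The third CYP26C1 probe set was below background on all 4 arrays and carries no information on direction. The third hydroxylase, CYP26B1, exceeded background on both replicate 2 arrays and on neither replicate 1 array. It read 12.7 and 22.2 on the HoxA13 arrays and 6.35 and 20.5 on the controls, with overlapping groups. Its 95% interval for the log2 difference ran from -1.62 to 2.73, and its second probe set was below background throughout.

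In limma, fitted to log2 intensities of the whole set of 37695, 0 probe sets passed at an adjusted p of 0.05 in either direction (0.0%), and 2228 (5.91%) had an unadjusted p under 0.05. CYP26A1 had a difference of 2.54 ± 0.52 on the log2 scale (SE, 95% interval 1.11 to 3.98) with an unadjusted p of 0.0081 and an adjusted p of 0.62. This was the smallest adjusted p of the fit and was shared by 498 probe sets, among which CYP26A1 ranked 489 by unadjusted p. The brightest and the next CYP26C1 probe sets had adjusted p values of 0.667 and 0.844 (limma). A second fit, taken over from an earlier analysis of these arrays and chosen there after results were seen, adds 16 to each intensity, keeps the 15818 probe sets above background on at least 2 arrays and lets the variance prior follow intensity. It is called the offset fit here. It passed 3 probe sets higher (0.019%) and 10 lower (0.0632%), and 813 (5.14%) had an unadjusted p under 0.05. CYP26A1 was 1 of the 3, at 2.37 ± 0.32 on its log2 scale (SE, limma adjusted p = 0.0481), so in this fit it rose. It no longer passed with 32 in place of 16 (adjusted p = 0.0501) or when HoxA13 replicate 1 was left out (adjusted p = 0.212), and it passed without each of the other arrays. Neither CYP26C1 probe set passed the offset fit (adjusted p = 0.411 and 0.812, limma). With the replicate number added to it as a block, 53 probe sets passed higher (0.335%) and 107 lower (0.676%), and of the members again only CYP26A1 (adjusted p = 2.65e-05, limma), while the labels do not say that the number marks a batch.

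**Figure D2:**
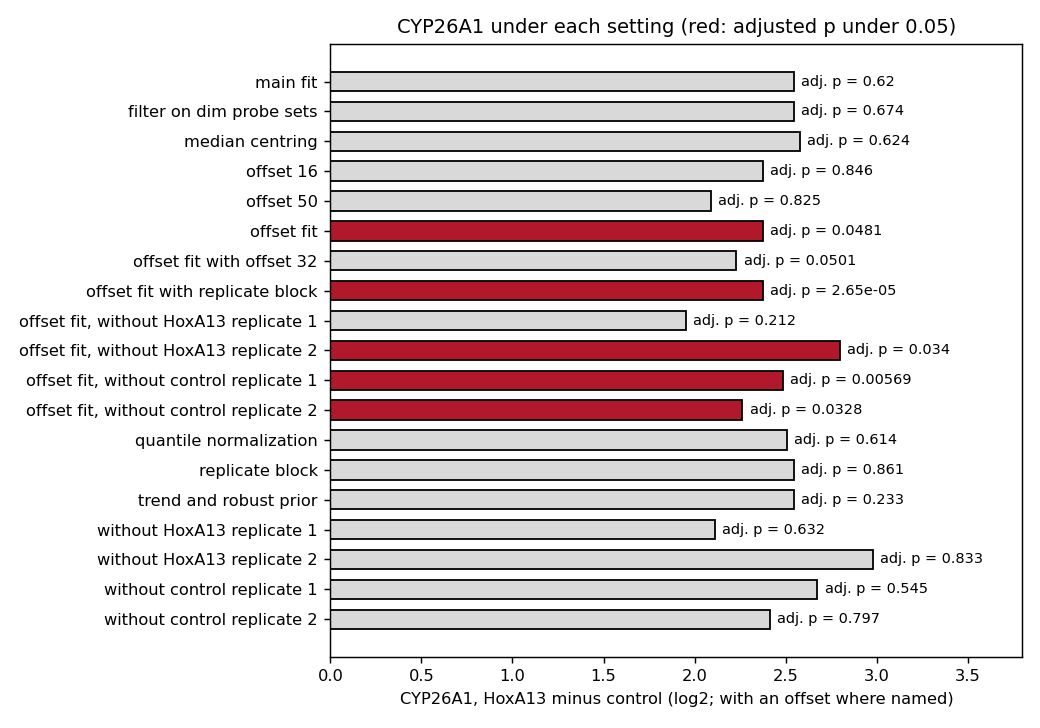
Log2 difference of CYP26A1 between HoxA13 and control (bars, from 0) under the main fit and 18 other settings, with the limma adjusted p beside each bar and red bars for an adjusted p under 0.05. The difference stayed between 1.95 and 2.98, and 5 of the 18 settings, all of them forms of the offset fit, gave an adjusted p under 0.05.

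The synthesising enzyme ALDH1A2 differed in the opposite direction. Its brightest probe set read 12.8 and 4.39 on the HoxA13 arrays, both below background, and 34.6 and 31.7 on the controls, both above it. The groups did not overlap. With the dim arrays raised to their background, the fold between the means of log2 intensity was 2.30, lower in HoxA13. This figure takes no account of the spread between arrays. The measured log2 difference was -2.15 ± 0.68 (SE), with -1.44 within replicate 1 and -2.85 within replicate 2. It did not pass in the main fit (adjusted p = 0.775, limma) or the offset fit (adjusted p = 0.538). The other ALDH1A2 probe sets were below background on all arrays. ALDH1A3, which makes retinoic acid chiefly in the head, the eye and the nose, read 4.69 and 17.2 on the HoxA13 arrays and 17.1 and 17.8 on the controls. Only HoxA13 replicate 1 stood apart, below background, and the adjusted p was 0.989 (limma).

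Tissues next to the streak also express ALDH1A2, so their markers were read beside it. Of 14 somite markers 12 were measured, 8 of these were below background on all arrays, and only MEOX1 and PAX9 were above it on at least 2 arrays. The summed intensity of the somite list was 103 to 148 on the HoxA13 arrays and 114 to 156 on the controls. MEOX1, which was 13.6 and 23.1 against 45.5 and 67.3, went the same way as ALDH1A2. PAX9, at 48.7 and 67.3 against 23.9 and 14.7, went the other way. The list of lateral and intermediate mesoderm held 13 measured genes, 9 of them below background throughout, and summed to 86.8 to 108 on the HoxA13 arrays and 191 to 244 on the controls. Its brightest gene on the controls, the lateral mesoderm homeobox gene PRRX1, read 16.6 and 29.9 against 109 and 113. BMP4, the only other gene of this list above background on at least 2 arrays, read 18.1 and 21.6 against 12.8 and 25.3. It differed in opposite directions in the replicate numbers, with overlapping groups. For blood and endothelium, 8 of 13 measured genes were below background throughout, and the sums were 66.8 to 148 and 621 to 673. Of these sums HHEX gave 44.2 and 9.39 against 336 and 419, and FLT1 gave 33.6 and 0.99 against 212 and 153. Of the 4 genes of this list above background on at least 2 arrays, 3 were lower in both replicate numbers and 1 opposite. The part of these tissues in the ALDH1A2 difference was not tested, and in a dissected region fewer cells of a type and less RNA per cell cannot be told apart. The progenitor list, 13 of whose 14 measured genes were above background, summed to 19767 to 22485 on the HoxA13 arrays and 15696 to 19442 on the controls, so its ranges did not overlap either. FGF8 alone gave 1411 and 1637 against 637 and 545, and without FGF8 the ranges of the sum overlap. Of the 13 genes 8 were higher in both replicate numbers, 2 lower in both and 3 opposite, with 6 apart and higher and 1 apart and lower. CYP26A1 is itself a gene of the streak, and the part of the share of progenitors in its difference was not tested either. Surface ectoderm markers summed to 1298 to 2193 and 2366 to 3075, and endoderm markers, again with HHEX, to 71.3 to 105 and 411 to 500. Of the 4 endoderm genes above background on at least 2 arrays, 3 were lower in both replicate numbers and 1 opposite. Among the lower genes CXCR4 was above background on the controls alone, as was LMO2 in the blood and endothelium list. The cut on background thus largely fixed the direction of CXCR4 and LMO2. HHEX is counted in both lists, so these counts support nothing on their own. In the surface ectoderm list EPCAM alone gave 1575.5 and 1029 against 2603 and 1686.5, and without EPCAM the ranges of the sum overlap. Of the 5 genes of that list above background, 2 were lower in both replicate numbers and 3 opposite, with 1 apart and lower. Beside these marker counts, 30.6% of all 15818 probe sets above background were higher in both replicate numbers and 24.6% lower in both. The groups were apart and higher in 18.3% of them and apart and lower in 14.7%. Neural plate markers, with 955 to 1228 and 886 to 1077, overlapped.

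Among the receptors RARB was above background on all arrays with 2 of its 3 probe sets. The brighter read 93.7 and 58.9 on the HoxA13 arrays and 55.7 and 35.0 on the controls. The other read 68.9 and 46 against 48.2 and 20.1. Both were higher in HoxA13 within each replicate number, by 1.68-fold and 1.69-fold for the brighter and by 1.43-fold and 2.28-fold for the other. The groups were apart in the first, with HoxA13 replicate 2 just above control replicate 1, and overlapped in the second. Pooled, the log2 differences were 0.75 ± 0.53 and 0.85 ± 0.64 (SE), with 95% intervals from -0.71 to 2.22 and from -0.92 to 2.63. Leaving out 1 array at a time moved the first between 0.42 and 1.09 and the second between 0.22, without control replicate 2, and 1.48, without control replicate 1. The first was at 0.42 without HoxA13 replicate 1 or control replicate 2 and at 1.09 without either of the others. RARB did not pass (adjusted p = 0.989 for both probe sets, limma, and 0.999 for both in the offset fit). In both groups replicate 1 was brighter than replicate 2, the order also seen in the middle probe set of ACTB, which read 666 and 401 on the HoxA13 arrays and 646 and 293 on the controls. Whether RARB follows the loss of 5′ signal was not tested.

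The remaining members were not detected. RARA, widely expressed in mouse embryos, had 1 probe set that read between 0.48 and 2.5. RXRG, one of the shared partner receptors, had 2, which read between 0.98 and 13.9. CRABP1, known from the neural tube and the neural crest, read 1.5 and 1.51 on the HoxA13 arrays and 0.64 and 4.6 on the controls. Values below background have no order, so no direction is given for these 3 genes. With 1 or 2 probe sets each, an absent signal is a statement about those probe sets at this brightness.

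Of the 8 member probe sets above background on at least 2 arrays, which stand for 6 of the 9 genes, 4 were apart and higher (CYP26A1, CYP26C1 with both and RARB with 1), 1 was apart and lower (ALDH1A2) and 3 overlapped. Among the 15818, 18.3% were apart and higher and 14.7% apart and lower. Within replicate numbers 6 of the 8 were higher in both, and 2, those of ALDH1A2 and ALDH1A3, lower in both. Among the 15818 these shares were 30.6% and 24.6%, and 44.8% went opposite ways. The 6 include CYP26B1, which was below background on both replicate 1 arrays (12.7 and 6.35) and so has no order there. The 2 include ALDH1A3, which read 17.2 against 17.8 within replicate 2. In the offset fit the 8 had a median of 0.59 on the log2 scale and all 15818 a median of 0.03. The filter on background admits a dim gene more readily when it is bright in 1 group, as with ALDH1A2, and probe sets of the same gene are not independent, so these counts describe the set and support nothing on their own. CYP26A1 was the only 1 of the 15818 probe sets that was over 4-fold higher in both replicate numbers on the log2(intensity + 16) scale (0.00632%), while 10 (0.0632%) were over 4-fold lower in both. This was the only cut used, and the count depends on where it lies. On that scale CYP26A1 was 2.68 higher in replicate 1 and 2.06 in replicate 2 (log2). A probe set of RASGRP3, described below, was 1.86 and 2.13 higher.

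**Figure D3:**
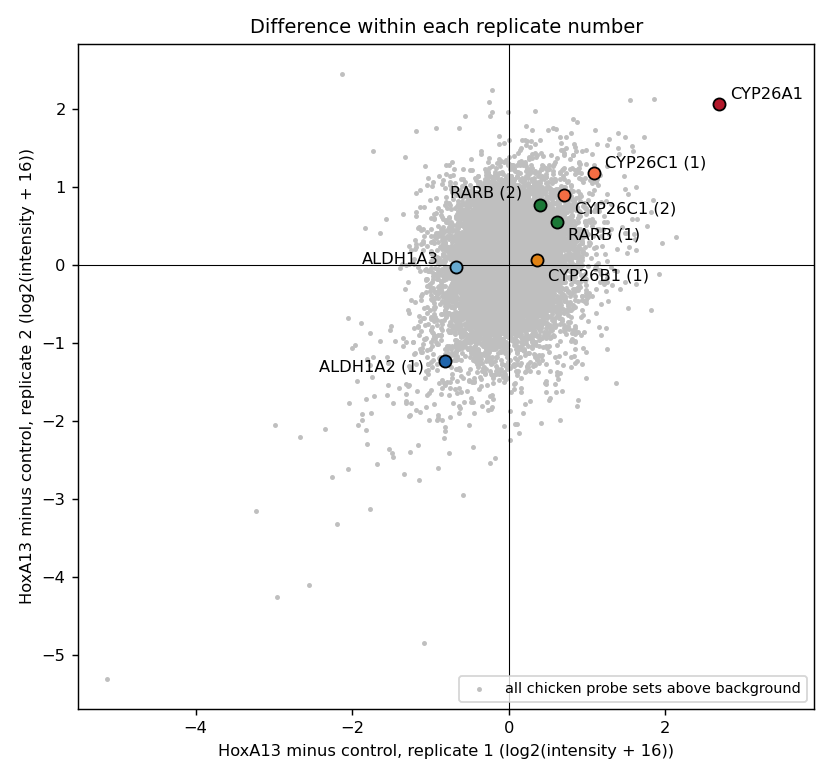
HoxA13 minus control within replicate 1 (x axis) and within replicate 2 (y axis), in log2(intensity + 16), for all 15818 probe sets that passed the background filter (grey) and the 8 probe sets of the retinoic acid genes among them. CYP26A1 lies at the upper right edge of the cloud, CYP26C1 and RARB lie within its upper right part, and ALDH1A2 lies within its lower left part.

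Beyond the members, lists of retinoid genes held 57 measured genes, of which 37 were above background on at least 2 arrays and 0 passed in the main or the offset fit (limma), with 4 of 57 and 3 of 37 at an unadjusted p under 0.05. Over all probe sets tested the shares were 5.91% in the main fit and 5.14% in the offset fit. Of the 4, ALDH1A1 and NEUROG2 were below background on all arrays. Of the 37, 9 were higher in both replicate numbers, 8 lower in both and 20 opposite, and their median difference in the offset fit was 0.08 (log2). Over all 15818 probe sets above background 30.6% were higher in both, 24.6% lower in both and 44.8% opposite, so these counts single out no direction. For uptake, storage and synthesis, members included, 13 of 23 measured genes were above background, 1 was higher in both replicate numbers and 4 lower in both. RDH10, the dehydrogenase of the first oxidation step, was lower in both with its 2 probe sets above background. These 2 share the stem of their names and are not independent measurements. The brighter read 160 and 57.0 on the HoxA13 arrays and 186 and 184 on the controls, and the other read 128 and 76.4 against 161 and 151. Its log2 differences were -0.95 ± 0.67 and -0.66 ± 0.48 (SE, adjusted p = 0.989 for both, limma), and most of the distance came from HoxA13 replicate 2. DHRS3, which turns retinaldehyde back to retinol, read 19.1 and 21.4 against 20.6 and 20.0. The retinol uptake receptor STRA6 read 68.6 and 104 against 83.9 and 69.5, with no common direction. ALDH1A1 was below background on all arrays.

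Among genes of breakdown and binding, POR, the electron donor of the microsomal cytochromes P450 to which the CYP26 enzymes belong, read 132 and 127 on the HoxA13 arrays and 73.4 and 87.2 on the controls with its brighter probe set. The groups were apart, the log2 difference was 0.69 ± 0.41 (SE), and the adjusted p was 0.989 (limma). FABP5, a fatty acid binding protein that also carries retinoic acid, read 71.6 and 65.6 against 126 and 92.8 with its brighter probe set, again apart and not past the test (adjusted p = 0.989). RXRA was below background on its 3 probe sets. The orphan receptor gene NR2C1 was represented by 3 probe sets, of which the brightest differed from the others. The brightest overlapped, with 486 and 398 against 518 and 230, and the next was apart and lower, with 128 and 92.3 against 159 and 158. The third was also apart and lower, with 18.3 and 12.6, the latter below background, against 21.4 and 35.3. RARG and CRABP2 had no probe set under these symbols.

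Target genes of retinoic acid did not share a direction. Of 23 measured, 15 were above background, 6 were higher in both replicate numbers (RARB, CYP26A1, HOXB1, HOXA4, HOXD4 and PAX6), 3 lower in both (MEIS2, CDX1 and TGM2) and 6 opposite. CYP26A1 was the only one of them that passed the offset fit. Among all 15818 probe sets above background 30.6% were higher in both and 24.6% lower in both. PAX6 passed the background filter through the HoxA13 arrays alone and TGM2 through the controls alone. The filter thus largely fixed the direction of these genes, and the counts support nothing on their own. MEIS2 read 8.75 and 14.64 on the HoxA13 arrays and 18.3 and 14.66 on the controls. Of these values 8.75 and 14.66 were below background, so its direction rests on little. PAX6, a homeobox gene of the neural tube, read 30.1 and 19.9 on the HoxA13 arrays and 8.69 and 10.3, below background, on the controls. TGM2, which codes for a transglutaminase, read 2.15 and 9.79, both below background, against 28 and 23.3. With the dim arrays raised to their background, PAX6 was 1.68-fold higher in HoxA13 and TGM2 1.77-fold lower. These folds take no account of the spread between arrays. The measured log2 differences were 1.37 ± 0.46 for PAX6 and -2.48 ± 0.88 for TGM2 (SE). CDX1, a caudal homeobox gene, read 17.7 and 15.3 against 31.4 and 27.8, a log2 difference of -0.85 ± 0.41 (SE). None of PAX6, TGM2 and CDX1 passed (adjusted p = 0.814, 0.844 and 0.967, limma).

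Array profiles most like that of CYP26A1 were found by the root mean square distance between profiles of log2(intensity + 16), each centred on its mean over the 4 arrays, among 12440 named probe sets above background. The 5 nearest were 2 probe sets of RASGRP3, which activates Ras, and 1 each of WDR66, GNG10 and HAPLN1, at distances of 0.41 to 0.54. The nearest, of RASGRP3, read 1916 and 966 on the HoxA13 arrays and 517 and 208 on the controls. HAPLN1, which links hyaluronan to proteoglycans, read 1207 and 568 against 380 and 276. For ALDH1A2 the nearest were SPATA17, RBL2, KCNK7, B3GNT2 and GRID1, at 0.04 to 0.09. On this scale ALDH1A2 differed by less than CYP26A1 (offset fit log2 differences -1.02 and 2.37). Why its distances were smaller was not tested, and with 4 arrays many genes come close. 

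In the RefSeq order of protein-coding genes (assembly GRCg7b, used here for gene order only) CYP26A1 and CYP26C1 are direct neighbours. The genes beside them were read out after values were seen. On the CYP26A1 side CEP55, a cytokinesis gene, differed in opposite directions in the replicate numbers with both probe sets above background, and the membrane repair gene MYOF read 51.5 and 24.3 on the HoxA13 arrays against 73.1 and 43.1 with its brightest. On the CYP26C1 side EXOC6, a subunit of the exocyst, read 149 and 151 against 154 and 147 with the probe set above background, with a 95% interval for the log2 difference from -1.13 to 1.12. Next to it lies HHEX, known as a regulator of early endoderm and blood vessel precursors, which was lower in HoxA13 (offset fit log2 difference -3.32, adjusted p = 0.0352, limma). HHEX did not pass in the main fit (adjusted p = 0.631, limma), and its HoxA13 replicate 2 value was below background. Its probe set carries the same suffix as the brightest of CYP26C1. KIF11, a mitotic kinesin gene beyond HHEX, read 921 and 749 against 914 and 600. EXOC6, which lies between CYP26C1 and HHEX, thus differed by less than its arrays differed from each other.

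**Figure D4:**
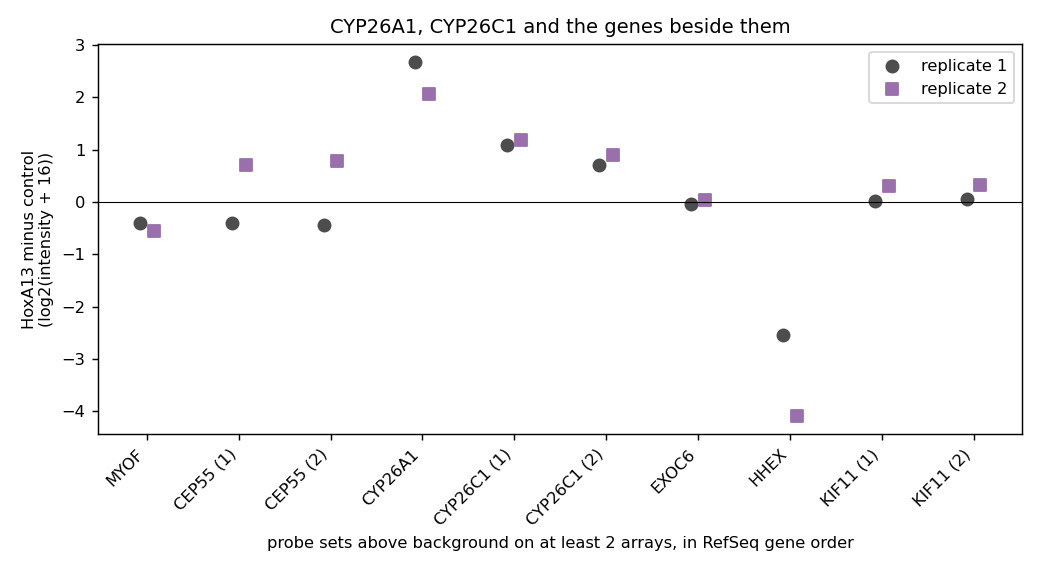
HoxA13 minus control in log2(intensity + 16) within replicate 1 (circles) and replicate 2 (squares) for probe sets above background on at least 2 arrays of CYP26A1, CYP26C1 and their neighbours, in RefSeq gene order and not to scale. CYP26A1 and CYP26C1 lie above 0 in both replicates, EXOC6 at 0 and HHEX below 0.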

How the data were processed

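RNA from 4 pools of embryos was hybridised to chicken Affymetrix arrays after a double amplification, per the labels' protocols. The authors deposited 1 intensity on a linear scale for each probe set. R 2.12.1 is named in the submitters' processing notes, while the summary method, background correction and scaling are not stated by any source used here. The number of arrays, 2 per group, limits the precision. Control (96), reporter (57) and viral (687) probe sets were left out of the tests. Of the chicken probe sets, 27168 had 1 symbol, 177 several and 10350 none, and those with several were not named.

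HoxA13 minus control was fitted with limma 3.58.1 in R 4.3.3 (lmFit, eBayes) on log2 of the deposited intensity, two-sided, with Benjamini-Hochberg adjustment over all chicken probe sets. The script was tested on simulated data. An exact permutation test of 2 against 2 cannot give a two-sided p below 0.333. P-values measure the spread between pools, much of it estimated by limma from other probe sets. For lists, the probe set with the highest mean stood for a gene.

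The members, lists, settings and rules were chosen with earlier results of these data known. Named were all member probe sets, 8 fixed retinoid genes (5 measured), the 6 others of the lists with the smallest p, the 5 likest profiles and, after values were seen, target genes with a common direction, markers and chromosomal neighbours. Sequences of the genes were not used here, and a planned promoter motif search was not run.

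Alternatives were quantile normalisation, median centring, offsets, a background filter, a trended robust prior, their combination (the offset fit), the replicate number as a block, leaving out 1 array at a time, and the mean over a gene's probe sets.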

Additional observations from a re-analysis of the deposited data

How the results depend on the processing

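The main fit passed 0 probe sets higher and 0 lower. With the background filter or the trended robust prior 1 was lower, and the offset fit gave 3 higher and 10 lower, or 2 and 9 with an offset of 32. Leaving out 1 array at a time kept the main fit at 0 and moved the offset fit between 0 and 23 higher and between 5 and 58 lower, with 0 higher and 9 lower without HoxA13 replicate 1, 1 and 5 without HoxA13 replicate 2, 23 and 58 without control replicate 1 and 3 and 14 without control replicate 2. The replicate numbers come from the labels alone. Arrays of equal number deviated together (correlation 0.30 over the 15818 probe sets above background), which with 2 pairs does not establish a pairing. With the replicate number as a block the main fit stayed at 0 and 0, and the offset fit gave 53 higher and 107 lower, with CYP26A1 at an adjusted p of 2.65e-05 (limma) and no other retinoic acid probe set past the threshold (the lowest adjusted p was 0.0619, for CYP26C1). Over the 8 probe sets above background, 140 of 148 recomputed differences kept their direction and their side of the threshold. The 5 that gained a call were all of CYP26A1, and 3 changed sign. The background filter, the trended robust prior and the replicate block leave the difference itself unchanged, so they could not turn a direction. No member other than CYP26A1 passed in any setting. The count of 140 is therefore no measure of robustness. The mean over the 3 ALDH1A2 probe sets was 0.012, because it takes in 2 that are below background on all arrays. The same mean over 3 probe sets, of which 1 is below background throughout, moved CYP26C1 from 1.82 to 0.50 and RARB from 0.75 to 0.23. Without control replicate 1, CYP26B1 turned to -0.29 in the main fit and -0.14 in the offset fit, and its main fit values without 1 array ranged from -0.29 to 1.40. These ranges were 0.22 to 1.48 and 0.42 to 1.09 for the RARB probe sets, -2.92 to -1.37 for ALDH1A2, -1.90 to -0.02 for ALDH1A3 (the value nearest 0 without HoxA13 replicate 1), and 1.55 to 2.09 and 1.05 to 1.60 for CYP26C1. The median log2 difference of 43 retinoid genes above background ranged from -0.02 to 0.14, and was at or just below 0 without HoxA13 replicate 2. Signal limits 9 of the 17 probe sets, which never exceeded background.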
